A study of Mus musculus with 11 samples.

Results

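Ctss, Laptm5, Rab20, Mpeg1 and Cybb encode proteins of the phagosome and the lysosome, the compartments in which a macrophage kills and digests what it has engulfed. They were taken by name, as 5 of the 754 genes of a Nanostring panel for myeloid innate immunity, which counts RNA molecules with a probe per gene and without amplification. The panel was read on CD11b+F4/80+ macrophages sorted from the peritoneal cavity of 11 female C57BL/6 mice, aged 6 to 8 weeks, which were given PBS or IL-4c by intraperitoneal injection on days 0 and 2 and sampled on day 4. IL-4c is IL-4 complexed with an antibody to it, which prolongs the action of the cytokine. The mice were wild type (Rα+/+) or homozygous for an allele in which the sequence of Retnla, the gene of RELMα, is replaced by the reporter TdTomato (RαTd/Td), so that they lack RELMα. There were 2 PBS Rα+/+ mice (mice 1 and 2), 2 PBS RαTd/Td mice (3 and 4), 3 IL-4c Rα+/+ mice (5, 6 and 7) and 4 IL-4c RαTd/Td mice (9, 10, 11 and 12). The reporter allele was carried in all cells after germline recombination by a general Cre deleter, not in macrophages alone, and the control mice carried no reporter.

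Phagosomes mature by fusing with endosomes and lysosomes, from which they receive proteases, a low pH and membrane proteins, while the phagocyte oxidase delivers superoxide into them. In macrophages, interferon-γ is known for raising several parts of this machinery, and IL-4 for driving a different, alternatively activated state. Of the 5 genes, Ctss encodes cathepsin S, a cysteine protease that trims the invariant chain in antigen presentation. Laptm5 encodes a lysosomal membrane protein of blood cells that directs immune receptors to degradation. Rab20 encodes a small GTPase of endosome and phagosome maturation. Mpeg1 encodes perforin-2, a pore-forming protein of phagocytes, and Cybb the catalytic membrane subunit of the phagocyte NADPH oxidase.

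The libraries held 268858 to 574505 counts above the floor, as recovered from the scaled values, and the values were normalized to housekeeping genes, with low values listed at a floor of 30. Retnla read 4631 and 4141 in the PBS Rα+/+ mice, 115675 to 171588 in the IL-4c Rα+/+ mice, and stood at the floor in all 6 RαTd/Td mice. The 6 macrophage markers on the panel summed to 23600 to 29795 in every mouse, a sum made up mostly of Adgre1 and Itgam, which mark the sort, while Csf1r, Mertk and Cd14 fell after IL-4c in both genotypes. All 5 eosinophil markers and all 3 dendritic cell markers on the panel were at the floor in every mouse. So were 4 of 6 neutrophil markers (Ly6g among them) and 3 of 4 mast cell or basophil markers. The neutrophil marker S100a8 read 70.8, 82.5 and 74.8 in PBS mice 1, 2 and 3. It was at the floor in PBS mouse 4 and all IL-4c Rα+/+ mice, and read 35.6 and 47.0 in IL-4c RαTd/Td mice 11 and 12. S100a9 left the floor only in mouse 9 (31.4), and the mast cell or basophil marker Cpa3 only in mouse 1 (48.2). Spiked-in positive controls, which are counted without regard to the cells, had geometric means of 853 to 1021 raw counts in the PBS mice, 301 to 441 in the IL-4c Rα+/+ mice and 507 to 623 in the IL-4c RαTd/Td mice. They thus moved with the treatment and, after IL-4c, with the genotype, and their part in the results was not tested.

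All 5 genes could be measured above the floor in each of the 11 mice. Their levels were not set against each other, since each probe has its own efficiency.

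**Figure D1:**
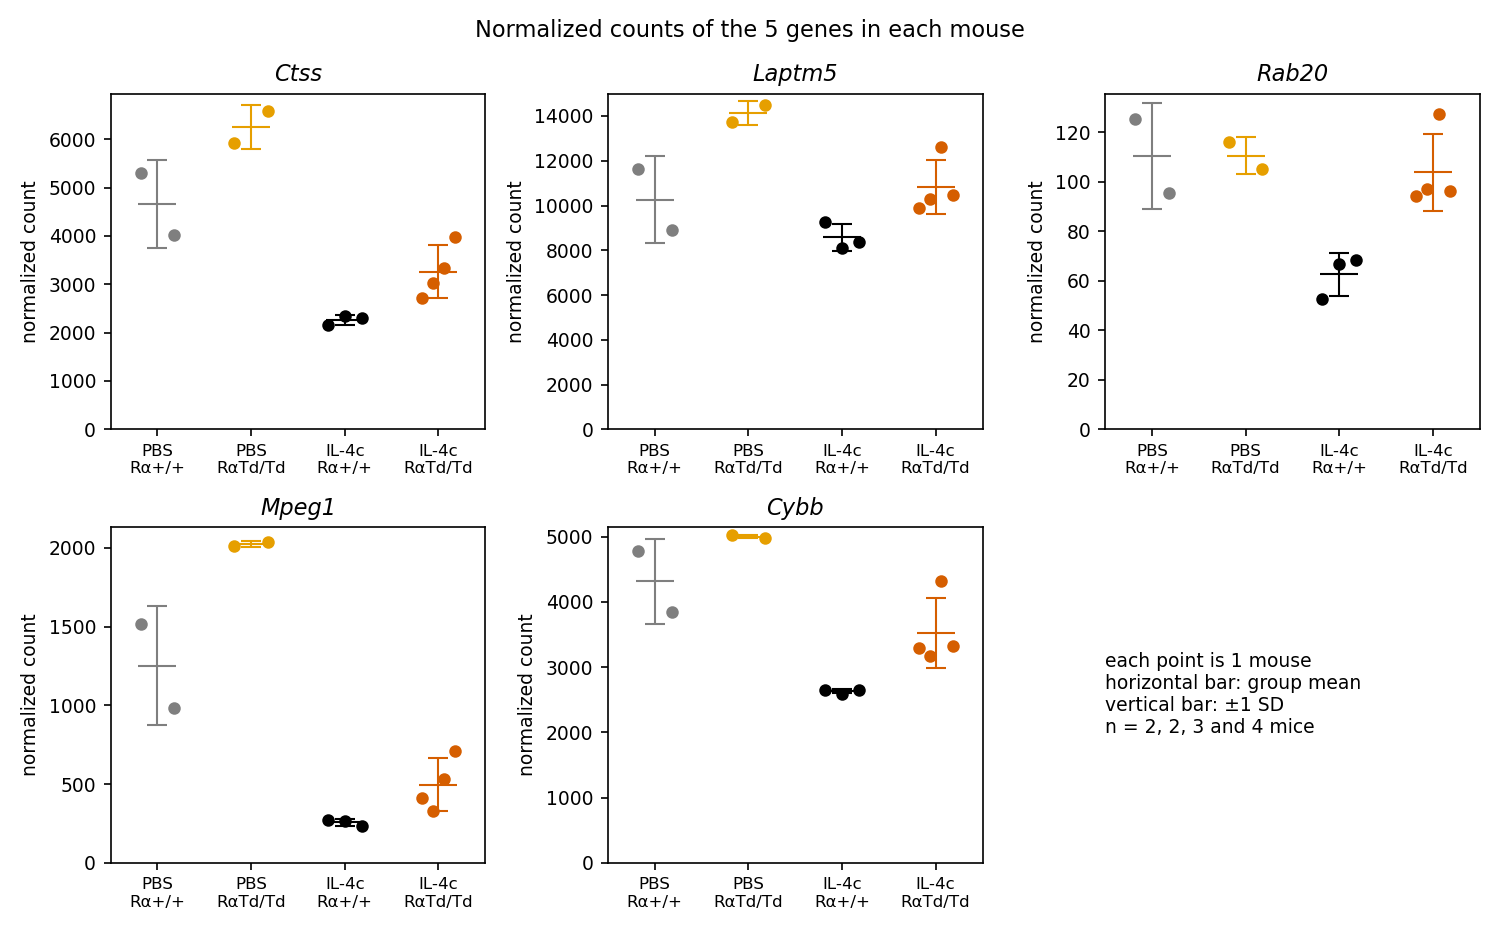
Normalized counts (vertical axes, linear from 0) of the 5 genes in the 4 groups, with 1 point per mouse, the group mean as a horizontal bar and 1 SD as a vertical bar (n = 2, 2, 3 and 4 mice). In all 5 panels the 4 IL-4c RαTd/Td mice lie above the 3 IL-4c Rα+/+ mice, as in 16.4% of all genes tested. The PBS mice lie above the IL-4c mice of the same genotype in all panels except Laptm5 in Rα+/+ and Rab20 in RαTd/Td. The same was so for 42.9% of all genes tested in Rα+/+ and 43.6% in RαTd/Td mice.

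Ctss read 5306 and 4016 in the PBS Rα+/+ mice, 5929 and 6582 in the PBS RαTd/Td mice, 2150, 2345 and 2306 in the IL-4c Rα+/+ mice, and 2708, 3019, 3326 and 3985 in the IL-4c RαTd/Td mice. No pair of groups that shares a genotype or a treatment overlapped. The group means were 4661 ± 912 (SD, n = 2), 6256 ± 462 (n = 2), 2267 ± 103 (n = 3) and 3260 ± 546 (n = 4) in the same order. From the highest, the groups ran PBS RαTd/Td, PBS Rα+/+, IL-4c RαTd/Td and IL-4c Rα+/+, and the middle neighbours were separated by only the gap between 4016 and 3985.

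Laptm5 read 11646 and 8890 in the PBS Rα+/+ mice, 13737 and 14511 in the PBS RαTd/Td mice, 9262, 8115 and 8378 in the IL-4c Rα+/+ mice, and 9894, 10287, 12599 and 10471 in the IL-4c RαTd/Td mice. The means were 10268 ± 1949, 14124 ± 547, 8585 ± 601 and 10813 ± 1215 (SD, n = 2, 2, 3 and 4). The PBS RαTd/Td mice were highest, the IL-4c RαTd/Td and PBS Rα+/+ mice came next with overlapping values, and the IL-4c Rα+/+ mice, lowest by their mean, overlapped the PBS Rα+/+ mice through mouse 2.

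Rab20 read 125 and 95.2 in the PBS Rα+/+ mice, 116 and 105 in the PBS RαTd/Td mice, 52.7, 66.7 and 68.4 in the IL-4c Rα+/+ mice, and 94.3, 97.1, 127 and 96.4 in the IL-4c RαTd/Td mice. The 3 IL-4c Rα+/+ mice were low and apart from the other 8, while the other groups overlapped one another and had no order beyond their spread. The 3 IL-4c Rα+/+ values averaged 62.6 ± 8.66 (SD, n = 3), against 104 ± 15.7 (n = 4) in the IL-4c RαTd/Td mice. This was a gene of few counts. The counts before scaling were not read from a table but recovered here by dividing each value by a factor inferred from the steps between values, so they and the intervals below hold only if 1 step is 1 count. On that reading, the values stood for 46, 55 and 59 counts in the IL-4c Rα+/+ mice and 84 to 118 in the IL-4c RαTd/Td mice. The exact 95% Poisson interval was 52.1 to 88.3 normalized counts for mouse 7 and 76.6 to 115 for mouse 9, so the nearest mice of both groups overlapped in counting error, which is the only error these intervals cover.

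Mpeg1 read 1518 and 984 in the PBS Rα+/+ mice, 2009 and 2036 in the PBS RαTd/Td mice, 273, 268 and 231 in the IL-4c Rα+/+ mice, and 408, 328, 532 and 713 in the IL-4c RαTd/Td mice. No pair of groups overlapped in Mpeg1, and the order from the highest was PBS RαTd/Td, PBS Rα+/+, IL-4c RαTd/Td and IL-4c Rα+/+. The means were 1251 ± 378, 2022 ± 19.0, 257 ± 22.9 and 495 ± 168 (SD, n = 2, 2, 3 and 4), and the values of the IL-4c RαTd/Td mice were spread more widely than those of the IL-4c Rα+/+ mice.

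Cybb read 4775 and 3854 in the PBS Rα+/+ mice, 5021 and 4986 in the PBS RαTd/Td mice, 2655, 2593 and 2648 in the IL-4c Rα+/+ mice, and 3300, 3168, 4322 and 3319 in the IL-4c RαTd/Td mice. The IL-4c Rα+/+ mice were the lowest, with no overlap with any other group, and mouse 11 of the IL-4c RαTd/Td mice reached into the range of the PBS Rα+/+ mice. The means were 4315 ± 652, 5003 ± 24.9, 2632 ± 34.3 and 3527 ± 534 (SD, n = 2, 2, 3 and 4).

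The 100 bases just before the RefSeq start of each gene are shown, so that a reader can see what the promoters share in sequence. After IL-4c, 4 of the 5 genes were called lower in each genotype. Of all genes tested, 32.4% were called lower in Rα+/+ and 36.6% in RαTd/Td mice. The 5 genes lie on 5 different chromosomes. Sequences are from RefSeq on the build GRCm38.p6, read 5′ to 3′ on the strand of the gene, and capitals mark a match to a motif.
Ctss, chr3:95526686-95526785, plus strand: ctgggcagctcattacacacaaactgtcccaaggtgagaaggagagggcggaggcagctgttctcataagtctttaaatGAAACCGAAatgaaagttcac
Laptm5, chr4:130913216-130913315, plus strand: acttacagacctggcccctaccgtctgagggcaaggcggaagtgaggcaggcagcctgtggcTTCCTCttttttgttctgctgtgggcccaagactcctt
Rab20, chr8:11478641-11478740, minus strand: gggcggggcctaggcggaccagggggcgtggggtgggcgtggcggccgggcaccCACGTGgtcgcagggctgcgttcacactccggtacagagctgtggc
Mpeg1, chr19:12460670-12460769, plus strand: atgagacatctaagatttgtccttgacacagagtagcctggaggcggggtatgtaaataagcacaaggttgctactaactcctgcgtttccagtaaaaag
Cybb, chrX:9469325-9469424, minus strand: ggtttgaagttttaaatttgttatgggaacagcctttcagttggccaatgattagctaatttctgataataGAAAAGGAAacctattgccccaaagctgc

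Motifs were searched on both strands of the 250 bases before each start, with GAAANNGAA for interferon regulatory factors, GAGGAA for PU.1, CACGTG for the E-box read by TFEB and TTGCNNAA for C/EBP factors. These were chosen after the expression values were known, and no match was found to overlap another in the capitals shown. Cybb held 3 matches to the interferon regulatory factor motif, Ctss 1 and Rab20 1, the last outside the bases shown, while 7.13% of the 32851 promoters of the same length held at least 1. The match in Ctss lay 21 to 13 bases before the start and the nearest in Cybb 29 to 21 bases before it. The other matches in Cybb were also outside the bases shown. The PU.1 motif was found in Laptm5 and, farther from the start than the bases shown, in Ctss, against 23.3% of all promoters. The E-box was found in Rab20 alone of the 5 genes, against 6.02%. None of the 5 windows matched TTGCNNAA, which 9.56% of promoters held, and Mpeg1 matched none of the 4 motifs. The starts used for Laptm5 and Cybb lie inside the annotated span of the gene, so other start sites of these genes were not covered. A match describes letters in these windows and not the binding of a factor.

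IL-4c against PBS in the Rα+/+ mice asked how the cytokine changed these genes where RELMα is made. Mpeg1, Ctss, Rab20 and Cybb fell and none of the 5 genes rose. Mpeg1 was 4.75-fold lower, Ctss 2.04-fold, Rab20 1.74-fold and Cybb 1.63-fold, and the level left after IL-4c was 21.0%, 49.1%, 56.9% and 61.4% of that after PBS by geometric means. In limma, the log2 fold change was -2.25 (SE 0.30, adjusted p = 0.000249) for Mpeg1. It was -1.03 (SE 0.18, adjusted p = 0.00119) for Ctss. Rab20 followed with -0.80 (SE 0.18, adjusted p = 0.00516) and Cybb with -0.70 (SE 0.15, adjusted p = 0.00412). Laptm5 gave -0.25 (SE 0.15, adjusted p = 0.209), which did not pass, with a 95% interval of -0.58 to 0.09, and its sign turned to 0.05 when each mouse was centred on its median gene. Over the 445 genes tested, 32.4% were called lower and 13.9% higher in this comparison. The median log2 fold change was -0.80 for the 5 genes and -0.18 for all genes tested. In 4 of the 5 genes the IL-4c mice all lay below the PBS mice, as did 42.9% of all genes tested. Centring on the median gene moved the median of all genes by 0.30, to 0.12, and then only Mpeg1 and Ctss were called. The split of calls was 62 higher and 144 lower as reported, and 106 higher and 92 lower after centring. Leaving out mouse 1 ended the call of Rab20 (log2 fold change -0.61, adjusted p = 0.0605). In a sorted population a lower value cannot be told apart between fewer cells of a type and less RNA per cell.

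In the RαTd/Td mice the same comparison asked whether the fall needs RELMα. Mpeg1, Ctss, Cybb and Laptm5 fell, and Rab20 did not pass the test. Mpeg1 was 4.25-fold lower (log2 fold change -2.09, SE 0.28, adjusted p = 0.000308) and Ctss 1.94-fold lower (-0.95, SE 0.17, adjusted p = 0.00121), which left 23.5% and 51.6% of the level after PBS. Cybb was 1.43-fold lower (-0.52, SE 0.14, adjusted p = 0.0130) and Laptm5 1.31-fold lower (-0.39, SE 0.14, adjusted p = 0.0420). Rab20 gave -0.10 (SE 0.17, adjusted p = 0.671) with a 95% interval of -0.49 to 0.29, and its sign turned to 0.16 after centring on the median gene and to 0.22 after quantile normalization. Of all genes tested, 36.6% were called lower and 15.3% higher, with a median of -0.23 against -0.52 for the 5 genes. The ranges of 4 of the 5 genes did not overlap, as was so for 43.6% of all genes in this direction. Centring moved the median of all genes by 0.26 and left the calls of Mpeg1 and Ctss alone. It changed the split of calls from 68 higher and 163 lower to 104 higher and 110 lower. The call of Laptm5 was also lost without any 1 of mice 3, 4, 5, 6, 7, 9, 10 or 12 (adjusted p of 0.0525 to 0.190), and that of Cybb without mouse 3 (0.0668) or mouse 4 (0.0696).

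**Figure D2:**
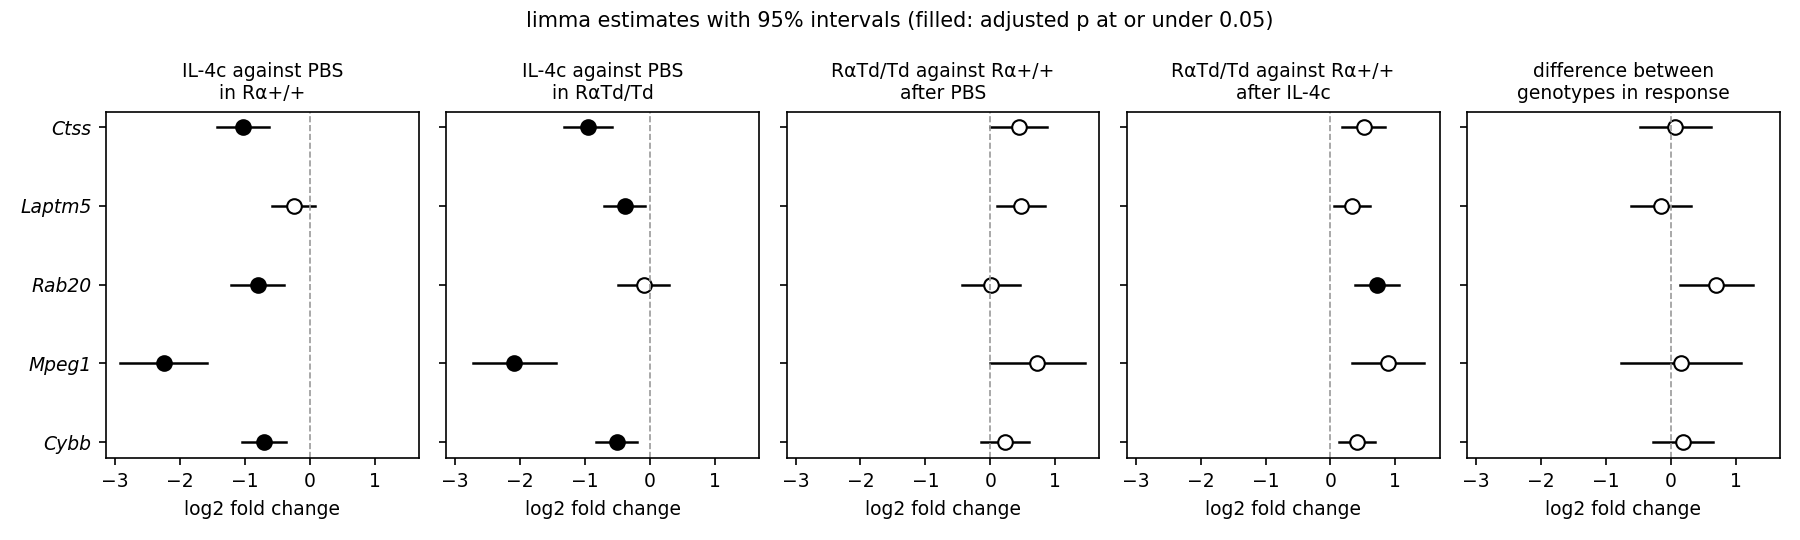
log2 fold changes of the 5 genes (horizontal axes) in the 5 comparisons, with 95% intervals from limma as lines, and filled points where the adjusted p was at or under 0.05. Mpeg1 and Ctss lie far below 0 in both IL-4c comparisons, with -2.25 and -1.03 in Rα+/+, and only Rab20 has a filled point between the genotypes, at 0.72 after IL-4c.

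After PBS, RαTd/Td against Rα+/+ asked whether the genotype alone moves these genes. None of the 5 passed the adjusted test in limma, where 8.09% of all genes tested were called higher. At an unadjusted p of 0.05 or less, Laptm5 (log2 fold change 0.47, SE 0.16, adjusted p = 0.116) and Ctss (0.44, SE 0.19, adjusted p = 0.212) were higher, as were 19.3% of all genes. Mpeg1 gave 0.73 (95% interval -0.01 to 1.46, adjusted p = 0.224) and Cybb 0.22 (-0.15 to 0.59, adjusted p = 0.473). Rab20 gave 0.01 (-0.43 to 0.46, adjusted p = 1), and its sign turned under each change of scaling, to -0.13 with centring, -0.05 with quantile normalization and -0.04 without the housekeeping gene Gusb. Both RαTd/Td mice were above both Rα+/+ mice in Ctss, Laptm5, Mpeg1 and Cybb, as in 35.5% of all genes tested. The median was 0.44 for the 5 genes and 0.10 for all genes. Mouse 2 was the lower of the PBS Rα+/+ mice in all 5 genes. Without mouse 1 Laptm5 was called (0.67, adjusted p = 0.0268).

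After IL-4c, RαTd/Td against Rα+/+ asked what the loss of RELMα does under the cytokine. All 5 genes are among those that the study itself named for RELMα-deficient macrophages, so they are not independent of the study's own choice of genes. Every IL-4c RαTd/Td mouse was above every IL-4c Rα+/+ mouse in all 5 genes, as in 16.4% of all genes tested. A further IL-4c Rα+/+ mouse, whose expression grouped with the PBS mice, had been set aside by the study and is not among these. Rab20 alone passed the adjusted test, 1.65-fold higher (log2 fold change 0.72, SE 0.15, adjusted p = 0.0421), in a comparison where 1.57% of genes were called higher. Mpeg1 was 1.85-fold higher by its estimate (0.89, SE 0.25, adjusted p = 0.102) and Ctss 1.42-fold (0.51, SE 0.15, adjusted p = 0.102). Cybb gave 0.41 (SE 0.13, adjusted p = 0.111) and Laptm5 0.33 (SE 0.13, adjusted p = 0.178). All 5 had an unadjusted p of 0.05 or less, as did 18.9% of all genes in this direction. The median was 0.51 for the 5 genes against 0.12 for all genes tested. Centring moved the median of all genes by 0.19 and left all 5 estimates above 0. The positive controls were higher in the same direction in this comparison, with 507 to 623 raw counts against 301 to 441, and their part in it was not tested.

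The call of Rab20 was close to the threshold. It held with a pseudocount of 10 (adjusted p = 0.0483), with genes above the floor in every mouse (0.0385) and without mouse 9 (0.0322). It was lost under centring (log2 fold change 0.53, adjusted p = 0.159), quantile normalization (0.58, 0.0762), scaling without Gusb (0.73, 0.0612), no filter (0.72, 0.148), the compared groups alone (0.72, 0.148), trend and robust moderation (0.72, 0.0524), a single floor (0.69, 0.0798) and without any other single mouse, where the estimate stayed between 0.60 and 0.79 and the adjusted p between 0.0555 and 0.197. Ctss was called without mouse 9 (0.59, adjusted p = 0.0486) and Mpeg1 without mouse 10 (1.06, adjusted p = 0.0483).

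**Figure D3:**
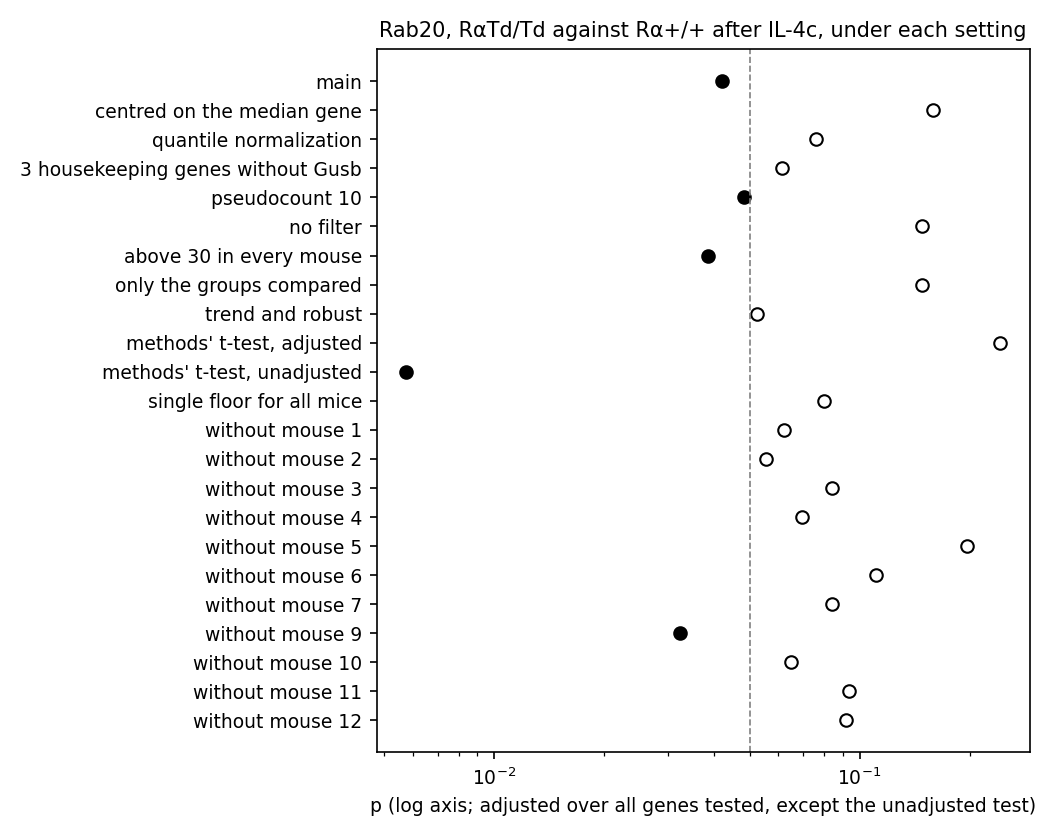
p of Rab20 for RαTd/Td against Rα+/+ after IL-4c (horizontal log axis) under the reported setting, 11 other settings and with each of the 11 mice left out, where the dashed line marks 0.05 and filled points lie at or under it. The values run from 0.00575 for the methods' test without adjustment to 0.242 for the same test adjusted.

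The difference between the genotypes in their response to IL-4c was tested directly. None of the 5 genes passed in limma, where 2.02% of all genes did. Rab20 gave the largest of the 5 estimates, 0.70 (95% interval 0.14 to 1.27, unadjusted p = 0.0197, adjusted p = 0.212), the only 1 of the 5 with an unadjusted p under 0.05. The intervals were -0.47 to 0.62 for Ctss, -0.61 to 0.32 for Laptm5, -0.77 to 1.08 for Mpeg1 and -0.28 to 0.66 for Cybb. Differences of response anywhere within these bounds, or none, were compatible with the values of these mice. The comparisons share mice: the PBS Rα+/+ and IL-4c RαTd/Td mice each enter several of them, and their values are given side by side.

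Cell type markers moved beside these results. Of the 6 macrophage markers, Csf1r (log2 fold change -0.97 in Rα+/+ and -0.98 in RαTd/Td mice), Mertk (-1.08 and -0.93) and Cd14 (-2.09 and -1.63) were called lower after IL-4c in both genotypes. The others did not fall alike. Adgre1 was called higher in Rα+/+ mice (0.50, adjusted p = 0.0187 in limma) and gave 0.36 in RαTd/Td mice. Cd68 gave 0.16 in Rα+/+ mice and was called higher in RαTd/Td mice (0.83, adjusted p = 0.00364). Itgam was called in neither (-0.004 and 0.33). Mertk, a receptor for apoptotic cells, and Cd14 were also called higher in RαTd/Td than in Rα+/+ mice after IL-4c, by 0.78 and 0.97 on the log2 scale (adjusted p = 0.0421 for both). Ms4a1, the only B cell marker of 6 that was on the panel, read 105 to 242 in the PBS mice, was at the floor in all 3 IL-4c Rα+/+ mice, and left the floor in 1 of the 4 IL-4c RαTd/Td mice, mouse 12, at 63.1. The 5 small peritoneal macrophage or monocyte markers on the panel summed to 50853 to 65484 after PBS in Rα+/+ and 59393 to 62332 in RαTd/Td, to 18754 to 21022 after IL-4c in Rα+/+ and to 24331 to 34824 in RαTd/Td. Itgax and Cx3cr1 of that list were at the floor in all mice and Fn1 made up most of the sum. Irf4, of the same list, was called higher after IL-4c in Rα+/+ mice (0.55, adjusted p = 0.0277 in limma) and gave -0.11 in RαTd/Td mice. Ccr2, a monocyte receptor, was highest in mouse 12, at 464, which was also the highest IL-4c mouse in Ctss and Mpeg1. Of the large peritoneal macrophage markers, Gata6 read 503 to 712 in all mice and Timd4 fell from 2567 to 4623 after PBS to 1044 to 1646 after IL-4c. The part of these cells in the values of the 5 genes was not tested.

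The other phagosome and lysosome genes of the panel place the 5 in their pathway. Of 29 such genes, 12 never rose above the floor, among them the inducible nitric oxide synthase Nos2 and the oxidase subunits Nox1 and Nox4, and 17 were tested. After IL-4c in Rα+/+ mice, 7 of the 17 were called lower and 1 higher, where 32.4% and 13.9% of all genes tested were, and the median log2 fold change was -0.23 against -0.18 for all genes. In RαTd/Td mice 9 were called lower and 4 higher, where 36.6% and 15.3% of all genes were, and the median was -0.36 against -0.23.

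Among the lysosomal hydrolases and their inhibitors, Man2b1, an α-mannosidase, fell in Rα+/+ (-1.38, adjusted p = 0.000551) and in RαTd/Td mice (-1.50, adjusted p = 0.000241). Ctsl, the protease cathepsin L, rose in RαTd/Td mice (1.59, SE 0.31, adjusted p = 0.00206) and gave 0.71 in Rα+/+ mice (adjusted p = 0.0996). Ctsl thus moved the opposite way from Ctss, the other cysteine cathepsin tested. Ctsd, cathepsin D, rose in RαTd/Td mice (0.44, adjusted p = 0.0386) and gave -0.06 in Rα+/+ mice. Grn, progranulin, fell in RαTd/Td mice (-0.46, adjusted p = 0.0109). The protease inhibitor Serpinb6a rose in both genotypes, by 0.65 (adjusted p = 0.0268) and 1.00 (adjusted p = 0.00221), while Cstb, Lipa and Gusb did not pass in either.

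Beside Laptm5, the lysosomal membrane protein Cd68 was tested, a glycoprotein of macrophages, and it rose in RαTd/Td mice (0.83, adjusted p = 0.00364) where Laptm5 fell. Beside Rab20, Rab3d, a GTPase of secretory vesicles, fell in Rα+/+ mice (-0.44, adjusted p = 0.0212) and gave 0.22 in RαTd/Td mice (adjusted p = 0.168). Rab3d had the smallest p of the 17 for the difference in response (0.66, unadjusted p = 0.00520 in limma), which did not pass after adjustment.

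All 6 transcription factors listed as regulators of phagocyte or lysosome genes were called lower after IL-4c in RαTd/Td mice, where 36.6% of all genes tested were, and 5 of them in Rα+/+ mice, where 32.4% were. These are counts over a short list and carry no test of the list. Irf8, a factor of the macrophage lineage, read 87.8 to 125 in the PBS mice and was at the floor in all 7 IL-4c mice. Cebpa fell by 1.67 on the log2 scale in Rα+/+ and by 1.43 in RαTd/Td mice. Cebpb fell by 0.65 and 0.90, and Irf1, which interferon induces, by 0.71 and 1.59. Between the genotypes after PBS, Grn read 962 and 1020 in RαTd/Td against 759 and 601 in Rα+/+ mice (0.55, adjusted p = 0.0436). The number of the 17 called after PBS ranged from 0 to 4 over the other settings and left-out mice. None of the 17 passed between the genotypes after IL-4c in limma, where Ctsd (0.47, unadjusted p = 0.00760) and Cebpa (0.76, unadjusted p = 0.00898) had the smallest unadjusted p.

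**Figure D4:**
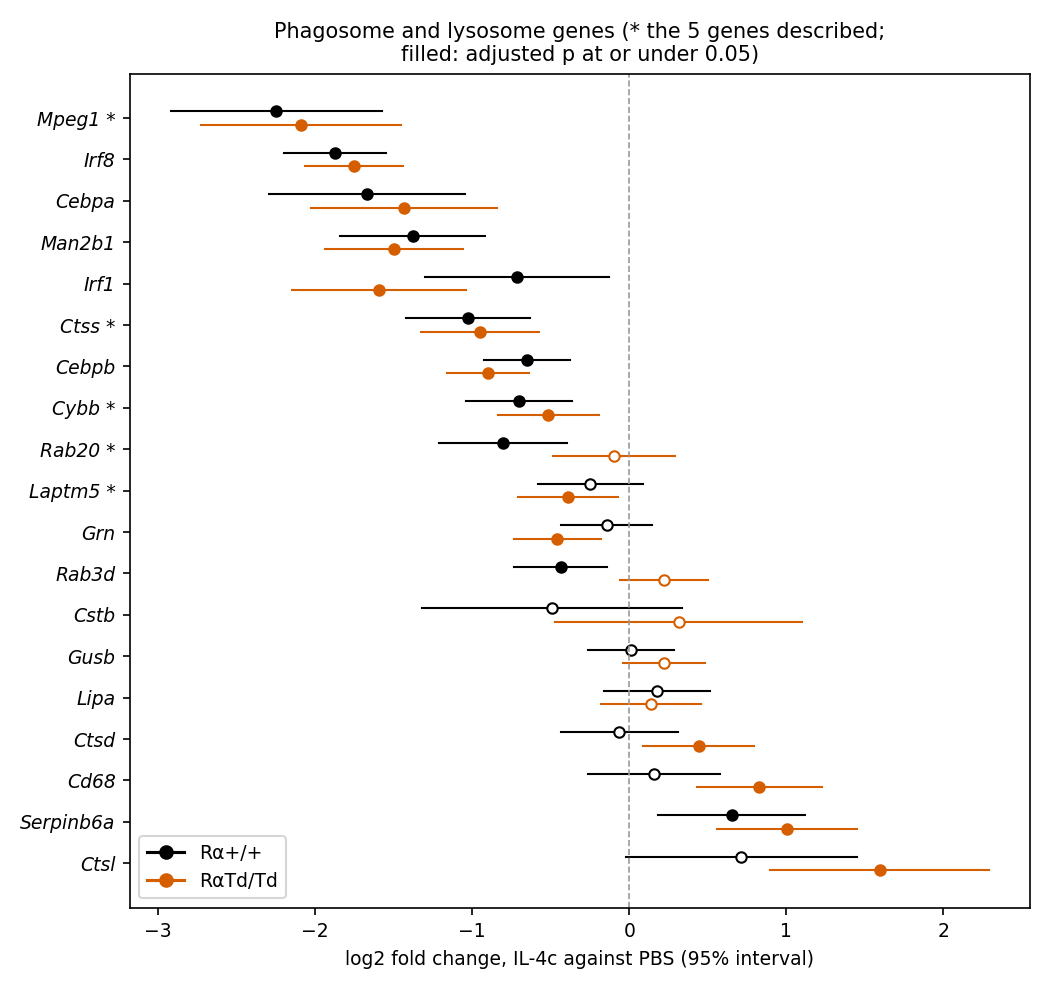
log2 fold change after IL-4c against PBS (horizontal axis, lines are 95% intervals from limma) for 19 of the phagosome and lysosome genes tested, in Rα+/+ and RαTd/Td mice, with filled points at an adjusted p of 0.05 or less and the 5 genes described marked by a star. Mpeg1 has the lowest estimates of those shown, at -2.25 and -2.09, and Ctsl the highest, at 0.71 and 1.59.

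The genes of the panel whose pattern over the 11 mice was most like each of the 5 were found by the root mean square difference of log2 values, each gene centred on its own mean, among the 303 genes above the floor in every mouse. For Ctss these were Csf1r, the receptor of the macrophage growth factor, with a difference of 0.119, and Lrp6 with 0.138. For Laptm5 the nearest was Selplg, a ligand of selectins, with 0.083. For Rab20 they were Cybb with 0.190 and the kinase Syk with 0.204, and for Cybb they were Dhrs3 with 0.109 and Syk with 0.112. Mpeg1 came nearest to Cd14, the co-receptor for bacterial lipopolysaccharide, with 0.224, and to Cd36, a scavenger receptor, with 0.281. Cd14 fell in Rα+/+ (-2.09, adjusted p = 0.000136) and in RαTd/Td mice (-1.63, adjusted p = 0.000358), and after IL-4c it was higher in RαTd/Td than in Rα+/+ mice (0.97, adjusted p = 0.0421). These differences describe likeness over mice that share the same 4 groups and carry no test.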

How the data were processed

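RNA of sorted macrophages was counted on the Nanostring panel by the authors, who deposited a signal per gene and mouse, in units of normalized counts on a linear scale. Within each mouse, deposited signal values between the floor of 30 and 1000 were whole multiples of a single factor, to within 0.1 of a count, and the 4 housekeeping genes (Oaz1, Rpl19, Eef1g and the lysosomal enzyme Gusb) had a geometric mean of 1501 in every mouse. The factors ran from 0.75 to 1.88, so low values were measurable only down to 56.3 in the mouse with the largest. One IL-4c Rα+/+ mouse that the study set aside was not analysed here. Its expression had grouped with that of the PBS mice. The study then found less RELMα and fewer peritoneal cells in it, and named poor delivery of IL-4c as the likely reason. The IL-4c Rα+/+ group was thus chosen in part by expression, and the effect of this on the comparisons was not tested.

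Groups followed the labels. The log2 of value plus 1 was fitted in limma 3.58.1 (R 4.3.3) over 445 genes with a mean above 30, with a coefficient for each of the 4 groups and all 11 mice sharing 1 estimate of spread. Tests were two-sided, and p-values were adjusted by Benjamini-Hochberg within each of 5 comparisons and called at 0.05. The fit was tested on simulated data. Alternatives changed the scaling, pseudocount, filter, samples and test, and left out each mouse. No gene had replicate probes, and mouse numbers were not shared between groups.

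The genes named were the 5, Retnla, the listed phagosome and lysosome genes and the 2 genes most like each of the 5, of which some are not reported here. The 5 genes, lists and tests were chosen with earlier results of these data known. Promoters came from RefSeq (GRCm38.p6), in which all 5 genes were matched by symbol.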

Additional observations from a re-analysis of the deposited data

Results flagged for a closer look

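Among the 4 IL-4c RαTd/Td mice, mouse 11 stood apart in 2 of the 5 genes by the gap to its nearest neighbour, taken as a share of the range of the group. For Rab20 it read 127, against 94.3 to 97.1 in the other mice, a gap of 0.913 of the range. For Cybb it read 4322, against 3168 to 3319, a gap of 0.870. Chance alone sets about 1 in 20 such groups of 4 apart. The rule was applied to the highest and lowest mouse in the 5 genes and in the 17 other phagosome and lysosome genes tested. It flagged none of the latter. Without mouse 11, Rab20 after IL-4c was 0.62 higher in RαTd/Td than in Rα+/+ mice on the log2 scale (adjusted p = 0.0937 in limma).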

How the results depend on the processing

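Values below are log2 fold changes unless said otherwise, with 12 other settings and with single mice left out, 11 in all, and the cause of a lost call was not tested. The falls of Mpeg1 and Ctss after IL-4c kept their direction and their call in both genotypes under all of these. The single floor for all mice was added after the data had been seen, and the others were planned. A count test on the counts before scaling was also planned and was not run. No paired analysis was possible because no 2 mice share a number.

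For IL-4c against PBS in Rα+/+ mice, centring on the median gene left 2 of 5 genes called, with 0.051 for Laptm5, -0.51 for Rab20 (adjusted p = 0.0530) and -0.41 for Cybb (0.0696). Rab20 also lost its call under quantile normalization (-0.41) and the methods' t-test after Benjamini-Hochberg adjustment (-0.80), and ranged from -1.0001 to -0.61 with 1 mouse left out. In RαTd/Td mice, centring left 2 genes called, with -0.13 for Laptm5, -0.26 for Cybb and 0.16 for Rab20, which quantile normalization put at 0.22. Laptm5 also lost its call without Gusb in the scaling (-0.32), without a filter (-0.39) and in the methods' t-test after adjustment (-0.39), which left 2 genes called and put Cybb (-0.52) past the threshold. With 1 mouse left out, 2 to 4 genes were called, Laptm5 ranged from -0.47 to -0.35 and Cybb from -0.62 to -0.47.

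Between the genotypes after PBS, Rab20 turned to -0.13, -0.050 and -0.040 under centring, quantile normalization and scaling without Gusb. With 1 mouse left out, 0 or 1 gene was called, Rab20 ranged from -0.18 to 0.21, with -0.06 without mouse 3, and Laptm5 from 0.28 to 0.67. After IL-4c, 0 of 5 genes were called under centring (Rab20 0.53), quantile normalization (0.58), scaling without Gusb (0.73), no filter (0.72), a mean above 100, which drops Rab20, the compared groups alone (0.72), trend and robust moderation (0.72), the adjusted t-test (0.72) and a single floor (0.69). The methods' t-test without adjustment called 5 of 5, with 0.51 for Ctss, 0.33 for Laptm5, 0.89 for Mpeg1 and 0.41 for Cybb, and 73 genes in all. With 1 mouse left out, 0 to 2 genes were called, and the ranges were 0.60 to 0.79 for Rab20, 0.41 to 0.59 for Ctss and 0.69 to 1.06 for Mpeg1. In the difference of response, Mpeg1 turned to -0.011 under quantile normalization. With 1 mouse left out it ranged from -0.15 to 0.47 (-0.035 without mouse 12), Ctss from -0.13 to 0.27 (-0.0020 without mouse 3 and -0.03 without mouse 12) and Laptm5 from -0.34 to 0.051.

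Over all settings the number of genes called was 146 to 227 for IL-4c in Rα+/+ mice (206 as reported), 162 to 243 in RαTd/Td mice (231), 2 to 73 between genotypes after PBS (43, with 73 without mouse 1 and 3 without mouse 4), 2 to 73 after IL-4c (12, with 27 without mouse 9) and 2 to 30 for the difference of response (9, with 30 without mouse 1). Of the 17 other phagosome and lysosome genes, 5 to 9, 9 to 13, 0 to 4, 0 to 4 and 0 to 1 were called in the same order. The ranges of all comparisons but the last include the t-test without adjustment. The 2 mice of each PBS group and the few counts of Rab20 limit the precision.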
